A study of Homo sapiens with 6 samples.

Results

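The genes described here encode 50 proteins of ribosome biogenesis and RNA polymerase I transcription, chosen by name from general knowledge of the pathway. The choice was made with earlier results of these data known. A gene was taken where its symbol in the FPKM files equalled a listed name, and its raw counts were then read by gene identifier. All 50 names were found among the 58735 genes of the count table, and all 50 passed the filter on low counts that left 14736 genes for testing. RNA sequencing was done on MDA-MB-231 cells, a human triple-negative breast cancer line, with 3 samples treated with vehicle and 3 treated with SCH, the aqueous extract of Salvia chinensis Benth. SCH was given at 100 mg/l, and both groups were collected after 24 h. The cells of both groups are wild type and come from this 1 line. The labels call the 3 samples of a group biological repeats and do not say whether they were separate cultures, so p-values measure the spread between these samples. Libraries were made from mRNA purified with poly-T beads, so that the ribosomal RNA itself was not measured. Total counts on genes were 20291379, 18714240 and 18334857 in vehicle samples and 16836369, 17979434 and 18414924 in SCH samples. Marker genes were read beside the label of the line, which is not a test of its identity. VIM, the mesenchymal filament vimentin, was at 261 to 269 FPKM in vehicle samples and 177 to 184 FPKM in SCH samples. ESR1, the oestrogen receptor, was at most 0.0157 FPKM and PGR, the progesterone receptor, at most 0.0033 FPKM in any sample. Of the other luminal epithelial markers, CDH1 was at most 0.0527 FPKM. In vehicle samples EPCAM was at 5.99 to 6.83, GATA3 at 3.65 to 3.98 and FOXA1 at 0.818 to 1.12 FPKM. ERBB2, the HER2 receptor, was at 6.44 to 6.81 FPKM in vehicle samples and 7.84 to 8.86 FPKM in SCH samples, a rise of 0.29 on the log2 scale. The 4 immune markers summed to at most 0.837 FPKM in a sample (CD14 the most abundant), the 3 endothelial markers to 0.212 FPKM (PECAM1) and the 4 fibroblast markers to 1.04 FPKM (COL1A1), with DCN at no count in any sample.

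RNA polymerase I transcribes a single long ribosomal RNA precursor in the nucleolus, from promoters bound by UBTF and by the selectivity factor that contains TAF1B and TAF1D, with RRN3 linking the polymerase to them. The precursor is modified at sites guided by small nucleolar RNAs and is cut and folded inside large assemblies, the small subunit processome and the pre-large-subunit particles. The pathway uses much of a dividing cell's capacity for RNA and protein synthesis, and enlarged nucleoli are a long-known feature of many tumours.

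The set fell after SCH. Of the 50 genes, 42 fell, none rose and 8 did not pass the threshold (edgeR's quasi-likelihood test, adjusted p under 0.05 over all 14736 genes). Over all genes tested 58.7% changed, 29.4% falling and 29.3% rising, where 84% of the members fell and 0% rose. Since most of the members are well expressed, the share was also taken over the 9562 genes of at least 10 CPM (counts scaled by library size, on average) in vehicle samples, where 34.4% fell. No member rose at an unadjusted p under 0.05, and DESeq2 gave 41 lower and none higher. With library size as the only scaling, 41 members fell and 1, RRN3, rose. The median log2 fold change was -0.56 over the members and -0.0034 over all genes tested. For 43 members every SCH sample lay below every vehicle sample, where 31.3% of all tested genes did so and 62.4% had groups apart in either direction. The falls were modest in size. Only NOP16 passed a log2 fold change of -1, as did 4.88% of the tested genes. At the same time 38 members lay below the lower quartile of all tested genes, which was -0.32.

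Added together, the 50 genes gave 9681, 9561 and 9660 CPM in vehicle samples and 6356, 6279 and 6471 CPM in SCH samples after TMM normalization. The groups were far apart against their spread, at 9634 ± 64.1 and 6369 ± 96.6 CPM (SD, n = 3), so that the SCH samples held 66.1% of the vehicle level. NPM1 alone made up a large part of this sum, and without it the level still dropped to 68.0%, from 7740 ± 58.5 to 5265 ± 76.1 CPM. As a plain share of the counts, with no normalization factor, the members held 0.931%, 0.917% and 0.937% of the total in vehicle samples and 0.658%, 0.651% and 0.668% in SCH samples. Other genes moved with the set. Of the 6 markers of the line 5 fell and none rose, CAV1, AXL and VIM by 1.17, 0.84 and 0.56 on the log2 scale, and their sum went from 1398, 1432 and 1348 FPKM to 1069, 1059 and 1067 FPKM, led by LGALS1. The 6 luminal markers summed to 11.6, 11.2 and 11.6 FPKM in vehicle samples and 9.58, 8.54 and 9.17 FPKM in SCH samples, led by EPCAM. Of these 6, GATA3 and EPCAM fell, FOXA1 rose by 1.16 on the log2 scale and 3 were not tested. At low levels, the immune marker PTPRC fell (34 to 39 counts in vehicle samples and 3 to 9 in SCH samples) and the fibroblast marker COL1A1 rose (80 to 106 and 147 to 162 counts). The part of these genes in the result was not tested. In RNA from whole cultures, fewer cells with a high level and less of these mRNAs in every cell cannot be told apart.

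**Figure D1:**
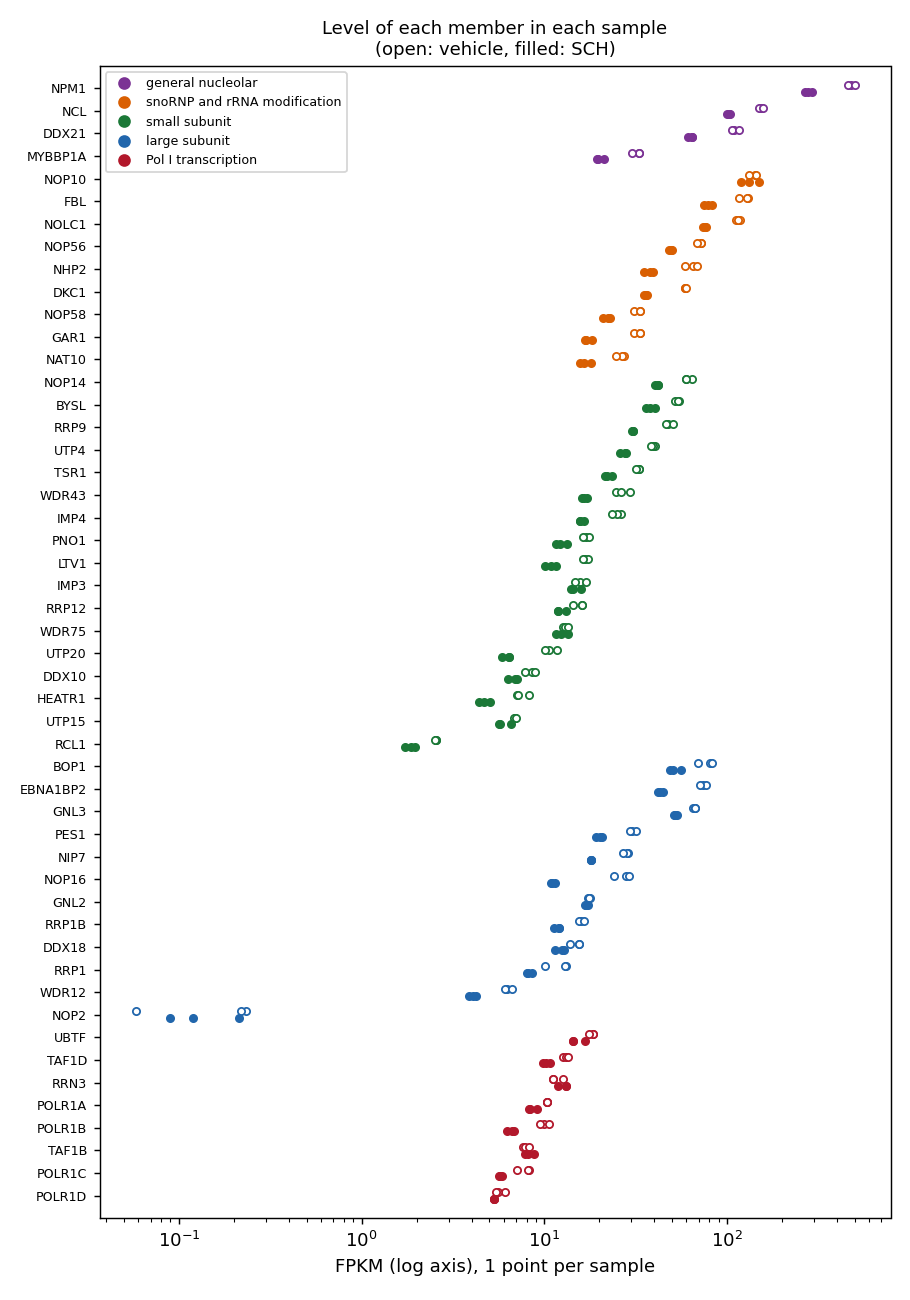
Level of each of the 50 genes in each sample, in FPKM on a log axis, with open points for the 3 vehicle samples, filled points for the 3 SCH samples and colours for the role of the gene. In most rows the filled points lie to the left of the open ones, levels run from NPM1 at 478 FPKM on average in vehicle samples down to NOP2 under 1 FPKM, and NOP10, RRN3 and TAF1B are among the rows where the 2 kinds of point mix.

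Levels between genes were compared per length, in FPKM. The median member stood at 25.6 FPKM in vehicle samples. NPM1, nucleophosmin, was the highest at 478 FPKM, followed by NCL, nucleolin, at 154 FPKM, NOP10 at 140 FPKM, FBL, fibrillarin, at 125 FPKM, NOLC1 at 115 FPKM and the helicase DDX21 at 111 FPKM. The polymerase subunits were lower, with POLR1A at 10.3 and POLR1B at 9.99 FPKM. Spearman's correlation between a member's level in vehicle samples and its log2 fold change was -0.43 across the 50 genes, which share libraries and are not independent, so that the more abundant members tended to be those with the larger falls.

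The general nucleolar proteins held the largest part of the summed level and all 4 fell, with a median log2 fold change of -0.73. NPM1 (ENSG00000181163, chr5:171387116-171411137, GRCh38), a chaperone of ribosome assembly and histones, was at 1885, 1818 and 1980 CPM in vehicle samples and 1053, 1101 and 1155 CPM in SCH samples. The lowest vehicle sample was well above the highest SCH sample. The log2 fold change was -0.78 (SE 0.048, adjusted p = 3.08e-12, edgeR's quasi-likelihood test). NPM1 has 45 annotated pseudogenes, whose counts together were at most 1.67% of its own, and the fold change was -0.78 with them added in. DDX21, a helicase that acts on ribosomal RNA transcription and processing, fell by the most in this group. It was at 567, 550 and 605 CPM in vehicle samples and at 331, 315 and 336 CPM in SCH samples. No values overlapped, and the log2 fold change was -0.81 (SE 0.049, adjusted p = 1.78e-12, edgeR's quasi-likelihood test). NCL (ENSG00000115053, chr2:231453531-231483641), which binds the precursor RNA and rDNA chromatin, changed least among the 4, from 1105, 1078 and 1126 CPM to 736, 714 and 732 CPM. Here too all SCH samples were lower, by 34.1% on the fitted scale (log2 fold change -0.60, SE 0.044). MYBBP1A, a nucleolar regulator that binds MYB and p53, fell by 0.68 on the log2 scale.

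RNA polymerase I and its promoter factors had the smallest median fall of the 5 role groups. Of these 8 genes, 5 fell and 3 did not pass the threshold, with a median of -0.28. Their summed level went from 652, 647 and 652 CPM to 557, 543 and 532 CPM. POLR1A (chr2:86020216-86106155), the largest subunit and part of the catalytic centre, was at 144, 145 and 145 CPM in vehicle samples and at 127, 116 and 115 CPM in SCH samples. The groups did not overlap and the mean was 17.5% lower (log2 fold change -0.28, SE 0.052, adjusted p = 8.03e-05, edgeR's quasi-likelihood test). POLR1B (chr2:112541915-112577150), the second-largest subunit, which completes that centre, was at 65.3, 61.8 and 69.2 CPM in vehicle samples and 40.4, 44.4 and 43.5 CPM in SCH samples. This was the largest fall of the group, at -0.61 (SE 0.064, adjusted p = 2.07e-08, edgeR's quasi-likelihood test). POLR1C and POLR1D form the assembly platform that RNA polymerases I and III share. POLR1C fell by 0.44 on the log2 scale. POLR1D did not pass the threshold at -0.11 (adjusted p = 0.105, edgeR's quasi-likelihood test), although its 3 SCH samples, at 61.0 to 61.6 CPM, were all below its vehicle samples, at 63.4 to 70.4 CPM. It passed with upper quartile normalization and without vehicle replicate 3 (-0.15 and -0.14), and was nearer to 0 with library size as the only scaling (-0.0098) and without vehicle replicate 1 (-0.062).

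Among the promoter factors, UBTF (chr17:44205033-44221626), the architectural protein of active rDNA, was at 134, 134 and 128 CPM in vehicle samples and at 120, 103 and 103 CPM in SCH samples. Its fall of 0.28 on the log2 scale (SE 0.059, adjusted p = 3.10e-04, edgeR's quasi-likelihood test) was about that of POLR1A. TAF1D, a selectivity factor subunit, fell by 0.35. TAF1B, another subunit of that factor, was at 32.1 to 34.6 CPM in vehicle samples and 33.0 to 36.9 CPM in SCH samples and did not pass the threshold (log2 fold change 0.06, adjusted p = 0.490, edgeR's quasi-likelihood test). RRN3 (chr16:15060022-15094317), the initiation factor that links the polymerase to the promoter, had the most positive value of all 50 genes. Its levels were 48.3, 48.2 and 54.4 CPM in vehicle samples and 50.5, 56.4 and 56.8 CPM in SCH samples. The groups overlapped, and the log2 fold change of 0.12 (SE 0.068) did not pass the threshold (adjusted p = 0.135, edgeR's quasi-likelihood test). It did pass with library size as the only scaling (0.22), without vehicle replicate 3 (0.18) and without SCH replicate 1 (0.18).

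**Figure D2:**
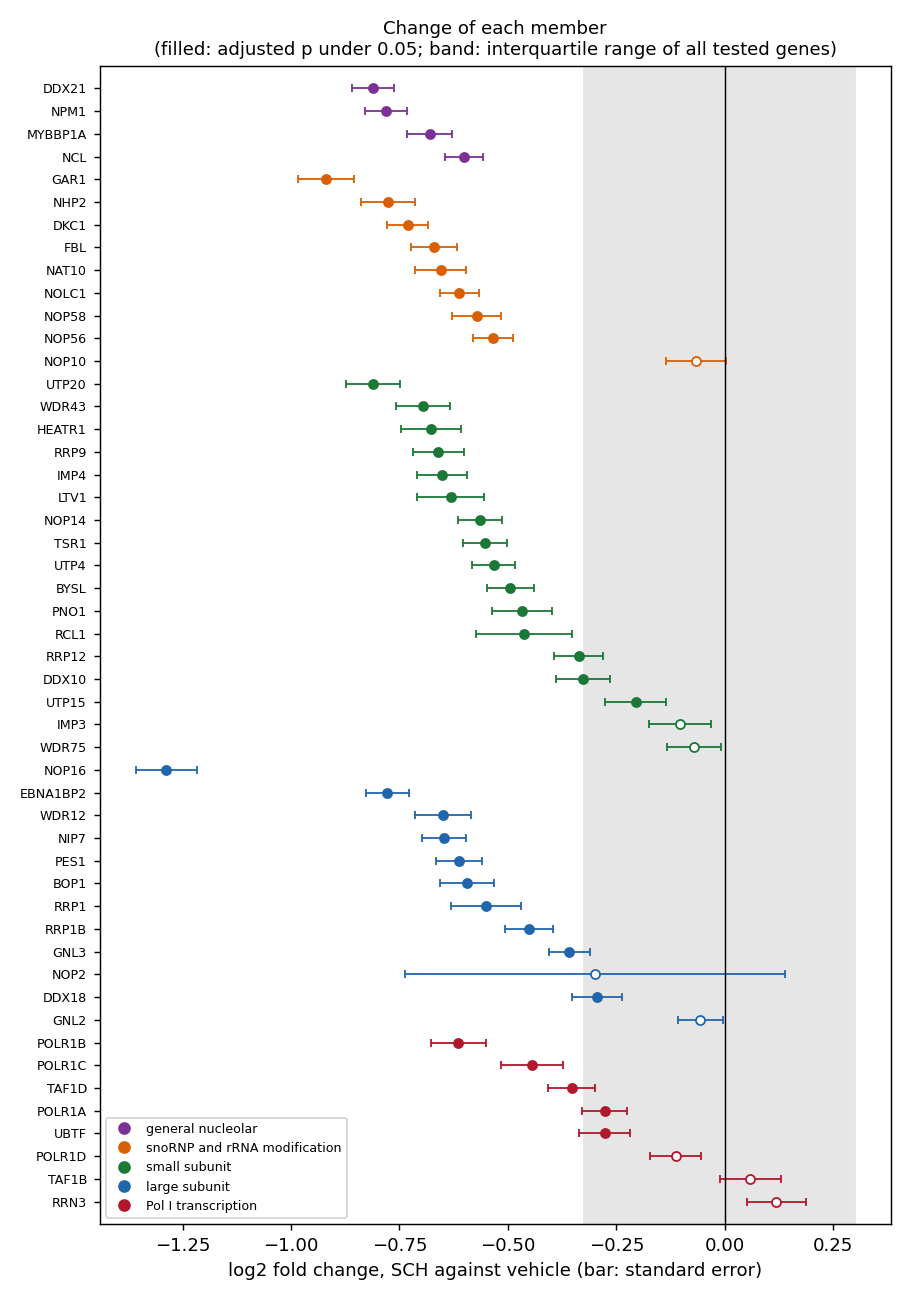
Log2 fold change of each member in SCH against vehicle samples with its standard error, grouped by role, with filled points for an adjusted p under 0.05 and a grey band for the interquartile range of all tested genes. NOP16 stands apart at -1.29, and 38 points lie to the left of the band. The Pol I transcription group, at the bottom, has the smallest median change and the only 2 positive values.

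The proteins of the small nucleolar ribonucleoproteins (snoRNPs), which methylate and pseudouridylate ribosomal RNA, fell in 8 of 9 cases with a median of -0.65. The box H/ACA complex, which makes pseudouridine, has 4 core proteins. DKC1 (chrX:154762742-154777689), dyskerin, its catalytic subunit, was at 256, 258 and 260 CPM in vehicle samples and at 151, 156 and 159 CPM in SCH samples. These were narrow groups with a wide gap (log2 fold change -0.73, SE 0.047, adjusted p = 6.16e-12, edgeR's quasi-likelihood test). GAR1, which helps the complex load and release its substrate, fell furthest of the 9, from 70.8, 65.5 and 70.7 CPM to 38.5, 35.6 and 35.4 CPM. The level was 47.1% lower (log2 fold change -0.92, SE 0.064). NHP2, an RNA-binding core protein, fell by 0.78 on the log2 scale. NOP10, the small bridging protein of the same complex, did not pass the threshold. It was at 82.1, 82.4 and 75.6 CPM in vehicle samples and at 68.2, 75.6 and 85.4 CPM in SCH samples. The groups overlapped, with the lowest and the highest of the 6 values both in SCH samples (log2 fold change -0.07, SE 0.068, adjusted p = 0.423, edgeR's quasi-likelihood test), and the sign turned with library size as the only scaling (0.037) and without SCH replicate 1 (0.014).

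Because these proteins act in 1 complex, the ratio of NOP10 to its partners was taken within each sample, a choice made with those values in view. The ratio of NOP10 to DKC1 counts was 0.321, 0.320 and 0.291 in vehicle samples and 0.450, 0.485 and 0.538 in SCH samples. All 3 SCH samples were above all vehicle samples, and the log2 difference was 0.66. Against NHP2 the difference was 0.70, and against GAR1 it was 0.85. As NOP10 was singled out by its values, these ratios are a description and carry no test.

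The box C/D proteins, which carry out ribose methylation, fell together. FBL (chr19:39834458-39846414), fibrillarin, the methyltransferase, was at 292, 288 and 263 CPM in vehicle samples and at 185, 168 and 177 CPM in SCH samples. There was no overlap, and the log2 fold change was -0.67 (SE 0.053, adjusted p = 1.67e-10, edgeR's quasi-likelihood test). NOP56, a scaffold of the complex, had the smallest fall among the snoRNP proteins that passed the threshold, from 402, 401 and 385 CPM to 267, 274 and 279 CPM (log2 fold change -0.54, SE 0.046). NOP58, its paralogue and partner, fell by 0.57. NOLC1, a nucleolar chaperone of snoRNPs, fell by 0.61, and NAT10, which acetylates cytidines in ribosomal RNA, fell by 0.65.

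Of the 17 genes for the small subunit, 15 fell, with a median of -0.53, and their summed level went from 1691, 1711 and 1695 CPM to 1193, 1178 and 1208 CPM. UTP20 (chr12:101280109-101386616), a very long scaffold protein of the processome, was at 110, 105 and 122 CPM in vehicle samples and at 65.8, 65.9 and 60.7 CPM in SCH samples. The drop of 43.0% was the largest in this group (log2 fold change -0.81, SE 0.062, adjusted p = 1.07e-10, edgeR's quasi-likelihood test). The subcomplex that binds the precursor first and is tied to its transcription is represented by 5 genes, and they were uneven. WDR43, HEATR1 and UTP4 fell by 0.70, 0.68 and 0.53 on the log2 scale. UTP15 had the smallest fall past the threshold in this group, from 45.3, 44.4 and 45.8 CPM to 37.3, 37.0 and 43.2 CPM. SCH replicate 3 was close to the vehicle samples (log2 fold change -0.21, SE 0.070, adjusted p = 0.0145, edgeR's quasi-likelihood test). The log2 fold change of UTP15 no longer passed with DESeq2 (adjusted p = 0.0572), with library size as the only scaling and without SCH replicate 1 or 2. WDR75, the fifth, was at 66.5 to 70.8 CPM in vehicle samples and 60.5 to 70.9 CPM in SCH samples, which overlapped (log2 fold change -0.07, adjusted p = 0.352, edgeR's quasi-likelihood test). Its value ranged from -0.12 to -0.014 with 1 sample left out at a time. It was positive with library size as the only scaling (0.033).

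The remaining small subunit genes covered the steps from the first cleavages to export. RRP9, a protein of the snoRNP that guides the early cleavages, fell by 0.66 on the log2 scale. IMP4, of a complex that joins this snoRNP in the processome, fell by 0.65, whereas IMP3, of the same complex, was at 39.4 to 44.7 CPM in vehicle samples and 36.8 to 42.3 CPM in SCH samples and did not pass the threshold (log2 fold change -0.10, adjusted p = 0.226, edgeR's quasi-likelihood test). IMP3 shares 59.3% of its exonic bases with SNX33 on the opposite strand, which had 456 to 554 counts in a sample, and how strand was set in the counting is not given in the sources used here. The processome factors NOP14 and RCL1 fell by 0.56 and 0.46, and the helicase DDX10 by 0.33. The late factors among the members accompany the particle to the cytoplasm, and all of these members fell. LTV1 was at -0.63, TSR1 at -0.55, BYSL at -0.49, PNO1 at -0.47 and the export factor RRP12 at -0.34.

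For the large subunit, 10 of 12 genes fell, with a median of -0.57. NOP16 (chr5:176383938-176388975), a nucleolar factor of the early pre-large-subunit particle, was at 82.6, 86.5 and 71.5 CPM in vehicle samples and at 33.8, 31.9 and 32.8 CPM in SCH samples. Its mean in SCH samples was 59.0% lower, the largest change of the 50 genes (log2 fold change -1.29, SE 0.070, adjusted p = 3.54e-13, edgeR's quasi-likelihood test). NOP16 shares 20.0% of its exonic bases with ARL10, which had 15 to 25 counts in a sample. EBNA1BP2, an assembly factor of the same early particles, fell by 0.78 on the log2 scale. PES1, BOP1 and WDR12 form the PeBoW complex, which acts in the processing of large subunit ribosomal RNA, and fell by similar amounts, at -0.61, -0.59 and -0.65. NIP7 fell by 0.65, RRP1 by 0.55 and its paralogue RRP1B by 0.45. GNL3, the nucleolar GTPase nucleostemin, fell by 0.36. The helicase DDX18 showed the smallest fall past the threshold, from 126, 113 and 126 CPM to 92.7, 101 and 104 CPM. The groups did not overlap (log2 fold change -0.29, SE 0.058, adjusted p = 1.32e-04, edgeR's quasi-likelihood test).

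GNL2, a GTPase related to GNL3, was at 106, 103 and 104 CPM in vehicle samples and at 97.9, 100 and 103 CPM in SCH samples. Its log2 fold change of -0.06 did not pass the threshold (SE 0.052, adjusted p = 0.370, edgeR's quasi-likelihood test). The sign turned with library size as the only scaling (0.047). NOP2, an RNA methyltransferase, had only 5 to 22 counts in a sample. At these counts a change like that of the other members was not detectable for NOP2 (log2 fold change -0.30, SE 0.44). The value for NOP2 ranged from -0.70 to 0.010 with 1 sample left out at a time. Its annotated exons overlap by 54.4% with those of AC006064.6 on the same strand, which had no count in any sample. Whether reads in shared exons were counted is not given in the sources used here, so the level of NOP2 is uncertain. Over 10% of the exonic bases were shared with another gene in 13 members, NOP2, IMP3 and NOP16 among them. Without these 13, 31 members fell and the median was -0.55. Of the 13 genes they share bases with, 8 were tested, of which 4 rose and 1 fell. RMND5B, which covers 27.4% of the exonic bases of NHP2, rose by 0.37 on the log2 scale. COG8, which covers 20.2% of those of NIP7, fell by 0.46, as NIP7 did by 0.65, and the part of shared reads in the fall of NIP7 was not tested.

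The promoters of the members were then read for short motifs, as a description of what genes that moved together have in common in sequence. RefSeq promoter windows of 300 bases (250 before the start of the gene and 50 after it, GRCh38.p14) were matched for 44 of the 50 members. The E-box CACGTG, a palindrome that reads the same on both strands and that MYC with its partner MAX is known to bind, was in 18 of the 44 windows (40.9%). It was in 10.1% of the windows of 10348 tested genes and in 7.43% of all 27305 windows. Among tested genes that fell the share was 12.5%, and among members that fell 41.7%. It was unevenly spread over the roles, with 10 of 16 small subunit windows, 4 of 9 large subunit windows, 3 of 7 snoRNP windows, 1 of 4 general nucleolar windows and none of 8 windows of the polymerase and its promoter factors. An E-box lay within 50 bases of the start in 17 of the 18 members, against 39.9% of the tested genes with an E-box. Of the 10 largest falls with a window, 4 had an E-box, about the share of all member windows, and 6 did not, namely NOP16, GAR1, DDX21, NPM1, NHP2 and DKC1. Of the 8 members that did not pass the threshold, 3 had it as well, GNL2, NOP10 and NOP2.

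The stretches around this E-box are shown for the members with the largest falls among those that have it, at most 2 from each role, and for GNL2 and NOP10, so that the same motif can be seen beside both outcomes. Others that have it, such as RRP9, IMP4 and LTV1 in the small subunit group, are not shown. Each is 30 bases of the gene's own strand, 5′ to 3′, from RefSeq on GRCh38.p14, with the E-box in capitals.
UTP20: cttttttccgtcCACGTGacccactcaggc
WDR43: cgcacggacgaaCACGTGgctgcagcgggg
MYBBP1A: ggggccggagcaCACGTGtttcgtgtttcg
FBL: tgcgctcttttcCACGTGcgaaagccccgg
NAT10: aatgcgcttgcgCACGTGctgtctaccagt
PES1: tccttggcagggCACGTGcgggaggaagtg
EBNA1BP2: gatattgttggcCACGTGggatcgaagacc
NOP10: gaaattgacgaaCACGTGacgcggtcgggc
GNL2: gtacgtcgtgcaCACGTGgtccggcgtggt

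These lie at chr12:101280083-101280112 (plus strand) for UTP20, chr2:28894658-28894687 (plus) for WDR43, chr17:4555340-4555369 (minus) for MYBBP1A and chr19:39846356-39846385 (minus) for FBL. The others are at chr11:34105602-34105631 (plus) for NAT10, chr22:30591880-30591909 (minus) for PES1, chr1:43172790-43172819 (minus) for EBNA1BP2, chr15:34343130-34343159 (minus) for NOP10 and chr1:37595917-37595946 (minus) for GNL2. The E-box of EBNA1BP2 is the one outside 50 bases, beginning 237 bases before the start. Only the central letters are held in common by all of the stretches. Some flanking letters recur, and WDR43 and NOP10 have the same letters, gacgaa, directly before the E-box. WDR43, which fell by 0.70, and GNL2, which did not pass the threshold, both have the E-box beginning at base 4, counted from 1 at the first base of the gene. NOP10 has 2 E-boxes in its window.

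The other motifs searched, on both strands, were nearer to the background. The ETS core GGAAG was in 84.1% of member windows and 76.4% of tested windows, and the CCAAT box, searched as CCAATC, in 22.7% and 19.7%. The TATA box TATAAA was in 4.55% and 5.50%, and the NRF1 site, read as its palindromic consensus, in 6.82% and 2.32%, the former being 3 genes. A match of letters is a description and not a bound site.

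**Figure D3:**
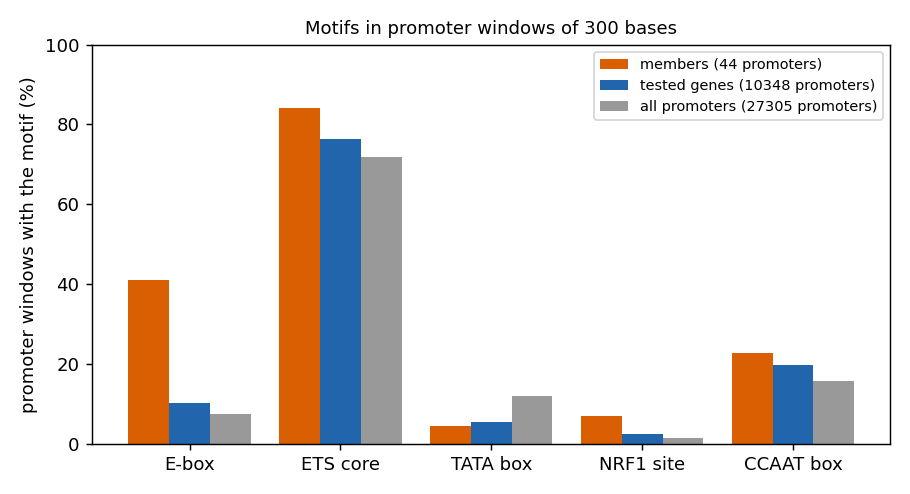
Share of promoter windows of 300 bases that hold each of 5 motifs on either strand, as bars from 0 to 100%, for 44 member windows, 10348 windows of tested genes and 27305 windows in all. The E-box bar of the members, at 40.9%, stands well above the bars of the tested genes and of all windows, at 10.1% and 7.43%, while the ETS core, TATA box and CCAAT box bars of the members are close to those of the tested genes.

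The members are only some of the genes of the pathway. A further 128 genes were taken from general knowledge, with earlier results of these data known. They cover RNA polymerase I, snoRNP assembly, both subunits, and ribosomal RNA exonucleases with exosome subunits and cofactors. Of these, 82 fell (64.1%), 9 rose (7.03%) and 37 did not pass the threshold, with a median log2 fold change of -0.27. Over all tested genes 29.4% fell and 29.3% rose, and 34.4% fell among those of at least 10 CPM in vehicle samples. A fall was also seen among these 128 genes, in a smaller share than among the 50 and with a smaller median. As the list was written with earlier results known, it is not independent support. With library size as the only scaling, 66 fell and 16 rose.

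In the further RNA polymerase I list, 7 of 14 genes fell and 3 rose. The polymerase subunit CD3EAP went from 22.1 to 11.8 CPM on average (log2 fold change -0.90), TCOF1, the nucleolar phosphoprotein treacle, from 229 to 143 CPM (-0.68), and the subunit POLR1E fell by 0.45. TAF1C, a selectivity factor subunit like TAF1B and TAF1D, rose by 0.32, and POLR2K and POLR2H, which nuclear RNA polymerases share, each rose by 0.20, the call of POLR2K being lost without vehicle replicate 2 or SCH replicate 3. The families were mixed. Outside the naming rule, with their values in view, the shared subunits POLR2E and POLR2F fell by 0.29 and 0.23 and TAF1A, of the selectivity factor, fell by 0.40, while the shared subunit POLR2L did not pass the threshold at -0.00057. Among the snoRNP assembly factors, 8 of 11 fell and 1 rose. RUVBL1 and RUVBL2, the paired ATPases of the assembly chaperone, fell by 0.73 and 0.55, and ZNHIT6 by 0.50, while ZNHIT3, another assembly factor, rose by 0.41.

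Of 40 further small subunit genes, 26 fell and 2 rose. NOB1, the endonuclease that makes the final cut of small subunit ribosomal RNA, fell by 0.82, the helicase DHX37 by 0.71 and WDR46 by 0.57. RIOK3, a kinase found on late particles, rose by 0.53, and the helicase DDX52 by 0.28. Of 47 further large subunit genes, 34 fell and 2 rose, with a median of -0.32. Only 2 of the 47 passed a log2 fold change of -1, as NOP16 did. NLE1, which the release of assembly factors depends on, went from 73.2 ± 3.64 to 31.4 ± 1.52 CPM (SD, n = 3, log2 fold change -1.22). RRS1, an assembly factor of the central protuberance, fell by 1.19 and the ATPase SPATA5 by 0.99. PELP1 rose by 0.35 and FTSJ3, an RNA methyltransferase, by 0.12, the latter call being lost with upper quartile normalization and without vehicle replicate 2 or 3 or SCH replicate 1 or 3. The exonuclease list also holds exosome subunits and cofactors that are not themselves exonucleases. Of its 16 genes 7 fell (43.8%) and 1 rose, with a median of -0.13. Over all tested genes 29.4% fell, and 34.4% of those of at least 10 CPM in vehicle samples. The falls in this list were led by the exosome subunits EXOSC5, EXOSC7 and EXOSC8 at -0.96, -0.80 and -0.40.

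The other RNA polymerases were read for comparison. Of 22 genes of RNA polymerase III and its factors, which make transfer RNA and the smallest ribosomal RNA, 10 fell (45.5%) and 6 rose (27.3%), with a median of -0.10, where 29.4% of all tested genes fell and 29.3% rose. Taken with the 7 core RNA polymerase II genes below, 7 to 11 fell with 1 sample left out at a time. At most 10 rose in any alternative. The alternative subunits POLR3G and POLR3GL, which take the same place in the enzyme, went in opposite directions. POLR3G was at 32.5, 34.3 and 37.9 CPM in vehicle samples and at 21.7, 23.0 and 22.8 CPM in SCH samples (log2 fold change -0.63, SE 0.077, adjusted p = 2.26e-07, edgeR's quasi-likelihood test). POLR3GL was at 10.3, 9.92 and 9.45 CPM in vehicle samples and at 16.9, 16.1 and 14.6 CPM in SCH samples (log2 fold change 0.68, SE 0.10, adjusted p = 4.05e-06, edgeR's quasi-likelihood test). Neither pair of groups overlapped. GTF3A, a factor for that smallest ribosomal RNA, fell by 0.41, and GTF3C1 and BRF2 each rose by 0.33. Of 7 core subunits of RNA polymerase II, which makes mRNA, 1 fell and 1 rose. The one that rose was its largest subunit, POLR2A, from 192 ± 5.47 to 353 ± 16.9 CPM (SD, n = 3, log2 fold change 0.88, adjusted p = 6.38e-13, edgeR's quasi-likelihood test). The matching largest subunit of RNA polymerase I, POLR1A, fell.

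**Figure D4:**
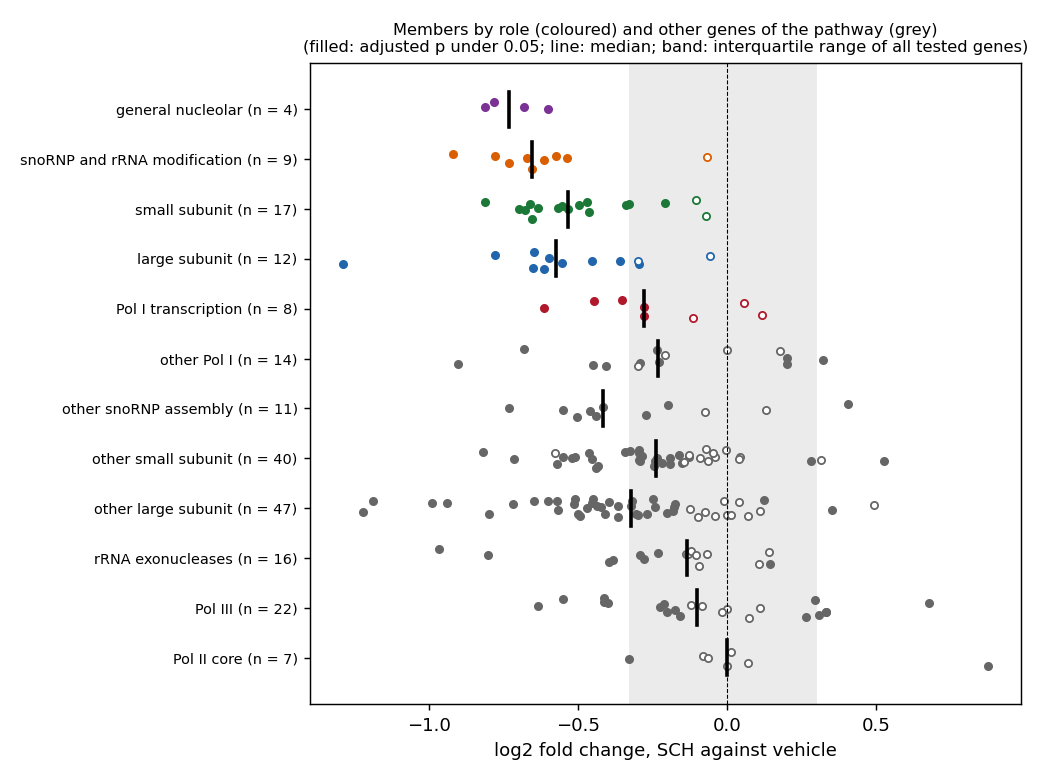
Log2 fold change of every member, in colour by role, and of the 157 other genes of the pathway and of RNA polymerases II and III, in grey, with a line at each median, filled points for an adjusted p under 0.05 and a band for the interquartile range of all tested genes. Medians of the members' groups run from -0.73 for the general nucleolar genes to -0.28 for Pol I transcription, those of the other ribosome lists from -0.41 to -0.13, and the RNA polymerase III and II lists are at -0.10 and near 0.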

How the data were processed

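For each of the 6 samples, the authors deposited unnormalized raw counts and FPKM values, which within a sample were proportional to the count divided by gene length. Against plain scaling by total counts, the median FPKM scale was 0.995 to 1.01 in vehicle samples and 0.937 to 0.941 in SCH samples. Between groups, FPKM values are thus not scaled by total counts alone. Per the submitters' processing notes, CASAVA 1.8, HISAT2 2.0.5, featureCounts 1.5.0-p3 and DESeq2 1.20.0 were used, with GRCh38. Strand settings are not given in the sources used here. The sample labels give RPMI medium, where the study's methods give DMEM. Between libraries of a group the chi-square of the counts was 2.05 to 5.29 per degree of freedom, so none were copies.

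Counts were fitted in R 4.3.3 with edgeR 4.0.16, using TMM normalization, filterByExpr and the quasi-likelihood test of SCH against vehicle without covariates, on the whole table, with Benjamini-Hochberg adjustment over 14736 genes and a threshold of 0.05. The scripts were tested on simulated data. CPM values use TMM-scaled library sizes, and 3 counts are a floor of 0.148 to 0.178 CPM by total count. The alternatives were RLE, upper quartile and library size scaling, DESeq2 1.42.0, a low-count filter of 10 per sample or none, a block for replicate number, limma 3.58.1 on log2(FPKM + 1) and log2(FPKM + 0.1), omission of each sample in turn, an added fold threshold of 1 on the log2 scale, and summing with pseudogenes. The exon-sharing, NOP10 ratio and 10 CPM comparisons were added after the values were seen. Exon sharing was measured for the members only.

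Members, lists and tests were chosen with earlier results of these data known. All members are named, with sample values for NCL, NPM1, FBL, DKC1, POLR1A, POLR1B, UBTF, RRN3, the extremes past the threshold in each role group, and the members that did not pass it. From each other list up to 3 genes per direction are named, those with the largest changes among those past the threshold that have non-overlapping groups and average 100 counts or more. One gene that this rule names is not reported here. Identity between paralogous proteins was not analysed here. Tables were made with Python 3.11.15.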

Additional observations from a re-analysis of the deposited data

How the results depend on the processing

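Of the 50 members, 43 kept their direction and side of the threshold in every alternative other than the added fold threshold, under which 1 member passed. The exceptions were GNL2, NOP10, NOP2, POLR1D, RRN3, UTP15 and WDR75, and among 30 other genes chosen by rule FTSJ3 and POLR2K. Library size as the only scaling moved the median of all tested genes to 0.099, with 5519 genes higher and 3295 lower (62.6% of calls higher, against 49.9%). Under it 1 member rose, in Pol I transcription, the median fell less for the members (-0.45), Pol I transcription (-0.17), snoRNP proteins (-0.55), small subunit (-0.43), large subunit (-0.47) and general nucleolar genes (-0.63), the log2 ratio of the summed CPM was -0.49, 16 other pathway genes rose, 6 RNA polymerase II and III genes fell, and NOP10 (0.037), WDR75 (0.033) and GNL2 (0.047) turned positive. Upper quartile normalization gave -0.59 for the members and -0.57 for the small subunit, and limma on log2(FPKM + 1) gave -0.53 and -0.51. DESeq2 left 7 RNA polymerase II and III genes lower. Without NPM1 the summed log2 ratio was -0.56. Where a change of 1 on the log2 scale was also required, 719 genes fell and 573 rose, 1 member and 1 large subunit gene fell, 2 other pathway genes fell, and 0 were lower in the remaining role groups and among RNA polymerase II and III genes, with 0 higher in the latter and in the other pathway lists.

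Leaving out 1 sample at a time gave 41 to 43 members lower and 0 to 1 higher (RRN3, in Pol I transcription, 0 to 1), small subunit medians of -0.55 to -0.51 and 7 to 11 RNA polymerase II and III genes lower, with 7 without vehicle replicate 1 or 2. NOP10 ranged from -0.14 to 0.014 (positive without SCH replicate 1) and NOP2 from -0.70 to 0.010 (positive without vehicle replicate 1). Of the other members without a call, WDR75 ranged from -0.12 to -0.014, IMP3 from -0.16 to -0.051, POLR1D from -0.14 to -0.062, GNL2 from -0.065 to -0.033, TAF1B from 0.019 to 0.11 and RRN3 from 0.093 to 0.18. Samples with the same number had correlations of 0.046, -0.022 and 0.022 in their deviations. For samples with different numbers they ran from -0.084 to 0.066. With 3 samples in a group, these values cannot decide whether the numbers pair the samples. With the replicate number as a block 42 members fell and none rose, over all genes 4350 fell and 4355 rose, and the median of the members was -0.56. The cause of these shifts was not tested. A low count limited NOP2 alone among the members, at 5 to 22 counts. Whether low depth or uncounted reads in shared exons made it low was not tested.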
